A study of Mus musculus with 14 samples.

Results

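The 5 ribosomal protein genes Rps2, Rps3a1, Rps28, Rpl3 and Rpl30 were followed across 14 mice, with 1 array of liver RNA each. They were taken as every oligonucleotide on the arrays whose name or symbol denotes 1 of these genes, which gave 1 oligonucleotide for each, 5 of the 271 different genes on the array. All 5 passed the filter for background, so none of them is missing from what follows. The question was whether genes that encode parts of one complex move together or apart across animals, slide series and genotypes.

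The animals were C57BL/6 mice aged 15 to 20 weeks on standard chow, 7 wild type and 7 of the genotype written mthr-/-, an abbreviation that the labels leave unexplained. The homozygous animals were also given 2% (w/v) betaine in their drinking water from 5 weeks after weaning, and the effects of genotype and betaine cannot be told apart. Females numbered 2 of the 7 wild type and 4 of the 7 mthr-/- animals, each animal had 1 single-colour array, and the labels give the tissue as liver and the cells as primary hepatocytes. The slide codes in the sample descriptions fall into 4 kinds, called slide series A to D here: series A held wild type 1 and mthr-/- 1, 2, 3 and 4, series B wild type 2, 3, 4 and 5 and mthr-/- 5 and 6, series C wild type 6 and 7, and series D mthr-/- 7.

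The ribosome is built from ribosomal RNA and many small proteins, divided between a small subunit that reads the messenger RNA and a large subunit that joins the amino acids. Most of these proteins are needed in equal numbers, since a ribosome holds a single copy of each, and the messenger RNAs of many ribosomal proteins are known to share a pyrimidine-rich start that ties their translation to growth signals. In liver, whose hepatocytes secrete much of the blood's protein, ribosomal protein transcripts are abundant. Rps2, Rps3a1 and Rps28 encode proteins of the small subunit, and Rpl3 and Rpl30 proteins of the large subunit.

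The total intensity of an array, after subtraction of local background, was between 20991 and 82510 for the 5 arrays of series A and between 14443 and 71270 for the other 9. Wild type 6 stood apart, with 70 oligonucleotides above background against 114 to 186 on the other arrays. All 8 hepatocyte markers on the array passed the filter, and their summed intensity ran from 7131 to 30831 in series A and from 1656.5 to 26009 outside it. The 3 muscle markers summed to between 9.2 and 46.8 in series A and between 3.9 and 928 outside it. Of the other lists, stellate cell or fibroblast markers had 3 of 4 genes past the filter, endothelial markers 2 of 4, and the 1 cholangiocyte marker, Krt19, did not pass, while leukocyte and erythroid markers were not on the array.

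Promoter sequence could be read for 3 of the 5 genes, Rps2, Rps3a1 and Rps28, from a RefSeq table of build GRCm38.p6, and it is shown because these 3 genes take opposite sides in the results. Each line gives the 250 bases before the annotated start, on the gene's own strand, from chr17:24719813-24720062 (+) for Rps2, chr3:86142669-86142918 (-) for Rps3a1 and chr17:33824563-33824812 (-) for Rps28. Capitals mark the words CGGAAG, which is the core recognised by ETS family factors, and TATAAA, the TATA box, or their reverse complements CTTCCG and TTTATA.
Rps2: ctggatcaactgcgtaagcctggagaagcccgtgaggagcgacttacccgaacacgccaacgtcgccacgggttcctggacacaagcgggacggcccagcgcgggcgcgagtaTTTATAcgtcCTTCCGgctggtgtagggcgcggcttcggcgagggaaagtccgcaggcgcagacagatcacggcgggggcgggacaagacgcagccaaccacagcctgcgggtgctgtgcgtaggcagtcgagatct
Rps3a1: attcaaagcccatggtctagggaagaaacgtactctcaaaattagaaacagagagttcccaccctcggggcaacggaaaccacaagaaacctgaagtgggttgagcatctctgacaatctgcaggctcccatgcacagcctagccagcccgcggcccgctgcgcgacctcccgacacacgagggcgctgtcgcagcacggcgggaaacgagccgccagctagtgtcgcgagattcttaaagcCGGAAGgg
Rps28: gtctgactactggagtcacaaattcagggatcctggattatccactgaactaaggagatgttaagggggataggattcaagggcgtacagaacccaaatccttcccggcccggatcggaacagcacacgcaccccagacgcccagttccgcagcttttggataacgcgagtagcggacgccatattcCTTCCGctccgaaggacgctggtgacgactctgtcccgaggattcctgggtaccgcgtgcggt
CGGAAG was found once in each of the 3 windows, on the reverse strand in Rps2 and Rps28 and on the forward strand in Rps3a1, and in 13.6% of the 32851 windows of the table. TATAAA was found once, in Rps2, on the reverse strand 137 to 132 bases before the annotated start, and in 12.4% of the windows. Whether that word acts as a TATA box was not tested. The CCAAT box was searched on both strands too and was found in 0 of the 3 windows and in 33.8% of all. No 2 of these words overlapped. The share of G and C was 65.2% in Rps2, 58.4% in Rps3a1 and 56.4% in Rps28, against a median of 52.4% over the windows.

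Between the genotypes, the 5 genes took both directions and none passed the test. Rps2, Rps3a1 and Rpl3 were higher in mthr-/- by 0.28, 0.23 and 0.10 on the log2 scale, and Rps28 and Rpl30 lower by 0.47 and 0.32. The median difference of the 5 was 0.10 and that of all 134 tested genes -0.0043, with 66 of the 134 higher in mthr-/-. In RNA from a bulk sample, fewer cells of a type and less of a transcript per cell cannot be told apart.

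Rps2 encodes a small subunit protein near the channel where messenger RNA enters and is known for its part in decoding accuracy. Its normalized log2 intensity had a lowest value of 6.76, a median of 7.22 and a highest of 7.81 in wild type, and 7.12, 7.50 and 7.87 in mthr-/-. The groups overlapped over most of their range, and wild type 1, the highest of its group, lay above 6 of the 7 mthr-/- arrays. The wild type mean was 7.20 ± 0.32 and the mthr-/- mean 7.48 ± 0.31 (SD, n = 7 each), which differ by 0.28 (SE 0.16, limma adjusted p = 0.578), or 1.21-fold. On wild type 6 the Rps2 spots read 0.75, under that array's background limit of 9.81, and the gene was above the limit on 13 of 14 arrays.

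Rps3a1, listed on the array under its older name Rps3a, encodes a small subunit protein near the channel where messenger RNA leaves. It ran from 7.03 through a median of 7.34 to 7.42 in wild type and from 7.10 through 7.50 to 7.94 in mthr-/-. Of the 7 mthr-/- arrays 6 lay above every wild type array, while mthr-/- 5 was lower than every wild type array but wild type 6. The difference was 0.23 (SE 0.11, limma adjusted p = 0.578, unadjusted p = 0.0472).

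Rps28 encodes a small protein beside the exit site of the small subunit. It ran from 7.57 through 8.17 to 8.59 in wild type and from 7.09 through 7.80 to 8.35 in mthr-/-. The 3 lowest arrays, mthr-/- 1, 3 and 4, lay below every wild type array and the other 4 overlapped with wild type. The difference was -0.47 (SE 0.21, limma adjusted p = 0.578, unadjusted p = 0.0421), or 0.72-fold.

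Rpl3 encodes a large subunit protein that reaches towards the centre where peptide bonds form. It varied least of the 5, with 6.82, 7.10 and 7.18 as lowest, median and highest in wild type and 7.05, 7.14 and 7.30 in mthr-/-. The groups overlapped, and the lowest array, wild type 6, read 2.25 in intensity, below its limit. The difference was 0.10 (SE 0.06, limma adjusted p = 0.578).

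Rpl30 encodes a large subunit protein at the face between the subunits, and in yeast it is known to bind its own transcript and hold back its splicing. It ran from 7.34 through 8.02 to 8.52 in wild type and from 7.19 through 7.70 to 8.19 in mthr-/-. The groups overlapped, with wild type 1 lower than 6 of the 7 mthr-/- arrays. The difference was -0.32 (SE 0.18, limma adjusted p = 0.578).

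At an adjusted p below 0.05, 0 of 134 genes and 0 of the 5 passed (0% of tested genes). At an unadjusted p below 0.05, 2 of the 5 passed, Rps3a1 and Rps28, against 7.46% of all tested genes, 6 higher and 4 lower. The authors' deposited table, which gives the mthr-/- median intensity over the wild type median, lists ratios of 2.64 for Rps2, 1.70 for Rps3a1, 0.528 for Rps28, 1.59 for Rpl3 and 0.647 for Rpl30. Of the 103 oligonucleotides in the authors' deposited table, 17 had a ratio of 2 or more and 1 a ratio of 0.5 or less. The signs in that table and in the fit were alike for the 5 genes, on values from the same animals.

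**Figure D1:**
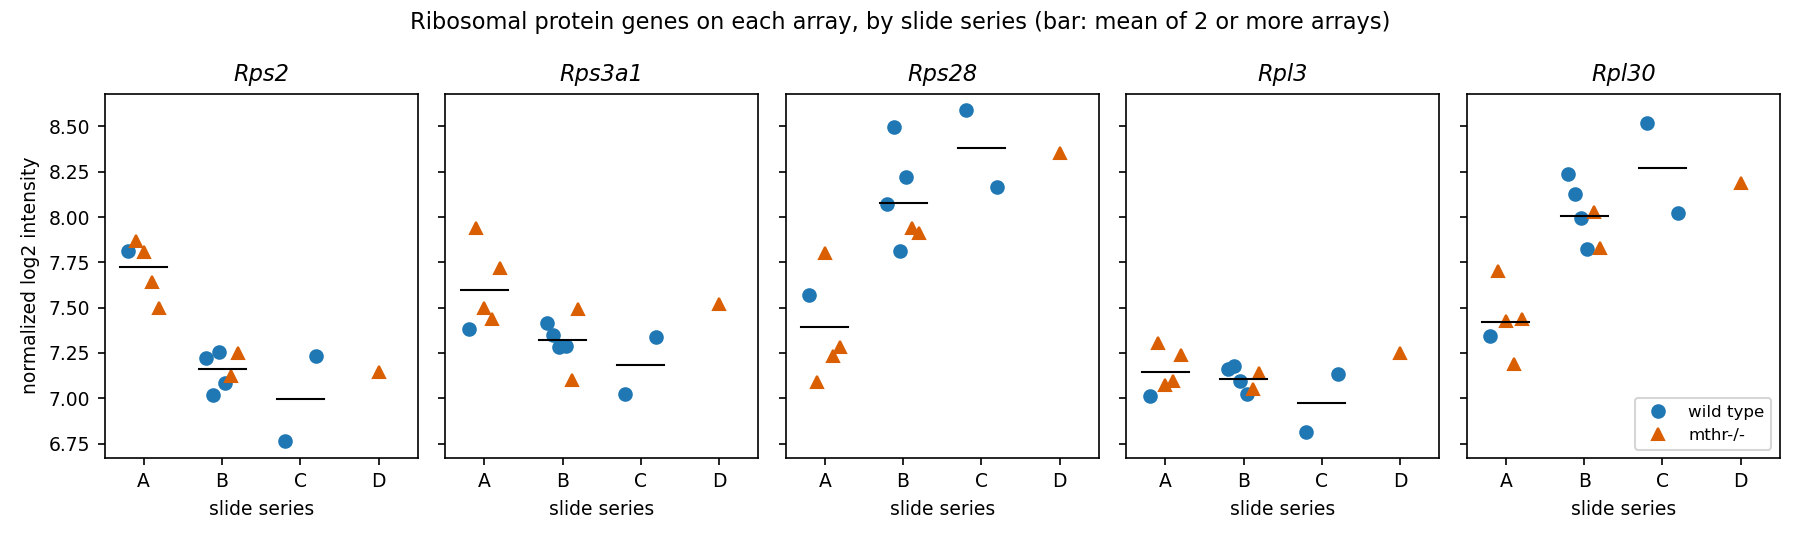
Normalized log2 intensity of each of the 5 genes (panels) on the 14 arrays, by slide series on the horizontal axis, with circles for wild type, triangles for mthr-/- and bars at the mean of series with 2 or more arrays. In series A, Rps2 sits between 7.50 and 7.87, above all other arrays, and Rpl30 between 7.19 and 7.70, below all other arrays.

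Between slide series A and B, 2 of the 5 genes passed the test, in opposite directions. Series A minus series B, with genotype in the model, was 0.57 for Rps2 and -0.57 for Rpl30. Rps28 differed by -0.58 without passing, Rps3a1 by 0.24 and Rpl3 by 0.015. At an unadjusted p below 0.05, 3 of the 5 passed, Rps28 being the third, against 21.6% of tested genes. Of the 134 genes 7 passed, 5.22% of those tested, 6 higher and 1 lower in series A, and Rpl30 was that 1 lower gene.

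Rps2 read 7.81 on wild type 1 and 7.87, 7.81, 7.64 and 7.50 on mthr-/- 1 to 4, the 5 arrays of series A. In series B it ran from 7.02 through a median of 7.17 to 7.25, in series C it read 6.76 and 7.23, and in series D 7.15. Every array of series A lay above every array outside it, the wild type array of series A among them. The difference from series B was 0.57 (SE 0.11, limma adjusted p = 0.0152), or 1.49-fold.

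Rpl30 showed the reverse order. It read 7.34 on wild type 1 and 7.70, 7.43, 7.19 and 7.44 on mthr-/- 1 to 4, against 7.82, 8.01 and 8.24 as lowest, median and highest of series B, 8.52 and 8.02 in series C and 8.19 in series D. All 5 arrays of series A lay below the other 9. The difference from series B was -0.57 (SE 0.14, limma adjusted p = 0.0389), or 0.674-fold.

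Rps28 read 7.57 on wild type 1 and 7.09, 7.80, 7.23 and 7.28 on mthr-/- 1 to 4. Outside series A it ran from 7.81 through 8.17 to 8.59 over 9 arrays. The groups did not overlap, but mthr-/- 2 at 7.80 and wild type 4 at 7.81 all but touched, and the difference from series B, -0.58 (SE 0.17), had a limma adjusted p of 0.0719.

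Rps3a1 and Rpl3 did not separate by series. Rps3a1 ran from 7.38 to 7.94 in series A and from 7.03 to 7.52 outside it, a difference from series B of 0.24 (SE 0.13, limma adjusted p = 0.261). Rpl3 ran from 7.01 to 7.30 and from 6.82 to 7.25, a difference of 0.015 (SE 0.08, limma adjusted p = 0.923). Summed intensity overlapped between series A and the remaining arrays, the summed muscle markers had a median of 19.8 in series A and 62.9 outside it, and the part of either in these differences was not tested. In all, 3 of the 5 genes had no overlap between series A and the remaining arrays, where 7.46% of tested genes had none, 7 above and 3 below. For the genotypes 0 of 134 genes and 0 of the 5 were free of overlap.

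The calls of Rps2 and Rpl30 depended on the scaling and on single arrays, while their signs did not in the 29 alternatives run for each. With arrays centred on their median, Rps2 differed by 0.60 and Rpl30 by -0.29, both with a limma adjusted p of 0.979. Leaving out wild type 1, the only wild type array of series A, gave 0.53 for Rps2 (limma adjusted p = 0.203) and -0.50 for Rpl30 (limma adjusted p = 0.31), and leaving out mthr-/- 5 gave 0.0939 and 0.159 as their adjusted p.

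When slide series was a block in the model, the genotype differences came from series A and B alone and were closer to 0. They were -0.016 (SE 0.11) for Rps2, 0.075 (SE 0.13) for Rps3a1, -0.22 (SE 0.17) for Rps28, 0.048 (SE 0.08) for Rpl3 and -0.037 (SE 0.14) for Rpl30, with limma adjusted p between 0.878 and 0.977, and 0 of the 5 and 0 of 134 genes (0%) passed. Within series A, mthr-/- minus wild type was -0.11 for Rps2, with 1 wild type array against 4 mthr-/- arrays, and within series B, with 4 against 2, it was 0.04. For Rps28 it was -0.22 in either series. Rps3a1 differed by 0.26 and -0.04, Rpl3 by 0.17 and -0.02, and Rpl30 by 0.10 and -0.12, so none of these 3 kept its sign in both.

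**Figure D2:**
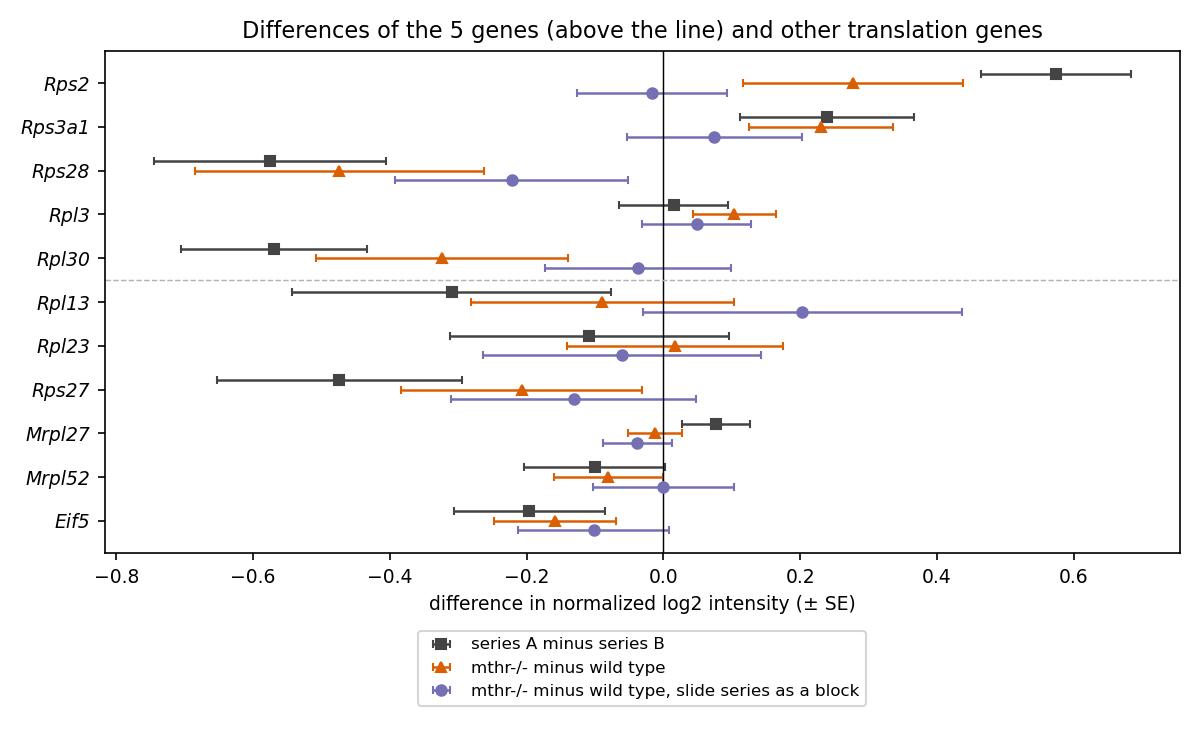
Difference in normalized log2 intensity with its SE on the horizontal axis for the 5 genes (above the dashed line) and the 6 other tested translation genes, as series A minus series B (squares), mthr-/- minus wild type (triangles) and the latter with slide series as a block (circles). Rps2 at 0.57 and Rpl30 at -0.57 lie on opposite sides for the series, and the circle of Rps2 lies at -0.016.

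The ratio of 2 genes on the same array does not depend on how arrays are scaled to each other. Its change from array to array shows unequal change of the 2 signals. Each animal had 1 array, so differences between animals and between slides cannot be told apart in a ratio. A ratio says nothing of which transcript is more abundant, since each oligonucleotide binds with its own strength. On background-subtracted intensities, Rps2 over Rpl30 was 1.89 on wild type 1 and 1.19, 1.72, 1.93 and 1.13 on mthr-/- 1 to 4. It was 0.159, 0.0826, 0.353 and 0.29 on wild type 2 to 5, 0.288 on wild type 7, and 0.165, 0.481 and 0.16 on mthr-/- 5 to 7. The 5 arrays of series A were above 1 and these 8 below 0.5, whichever their genotype. On wild type 6, Rps2, Rps3a1 and Rpl3 were below the background limit, so ratios with any of these 3 genes are given without that array.

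Rps2 over Rps28 ran from 1.02 to 4.74 in series A and from 0.0578 to 0.444 on the 8 arrays outside it, without overlap. Rps3a1 over Rpl30 ran from 1.09 to 1.49 and from 0.157 to 0.7, and Rps3a1 over Rps28 from 0.645 to 5.15 and from 0.166 to 0.612. Rps2 over Rpl3 ran from 1.67 to 4.41 in series A and from 0.56 to 1.48 outside it, and Rpl3 over Rpl30 from 0.415 to 0.784 and from 0.126 to 0.375. These 6 of the 10 pairs had no overlap, where 11.1% of the 4753 pairs of genes above 0 on the 13 arrays had none. With wild type 6 kept, the same 6 pairs had none, against 10.5% of 4371 pairs. The 10 pairs share 5 genes and are not independent of each other. After background correction with an offset of 50, 3 of the 10 pairs had no overlap, Rps2 with Rps28, Rps2 with Rpl30 and Rps3a1 with Rpl30, against 3.2% of 8911 pairs. Between the genotypes, 0 of the 10 ratios were free of overlap with or without wild type 6 or with the offset, against 0.0915%, 0.126% and 0.0112% of pairs.

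The other 4 ratios overlapped between series A and the rest. Rps28 over Rpl30 had a median of 1.09 in series A and 1.14 outside it, and ranged from 0.251 to 1.69 and from 0.794 to 1.62. Rps3a1 over Rpl3 had medians of 2.55 and 1.68 with ranges of 1.9 to 2.71 and 1.24 to 2.14. Rps2 over Rps3a1 ran from 0.803 to 1.73 and from 0.349 to 1.05, and Rps28 over Rpl3 from 0.526 to 4.06 and from 3.05 to 9.7.

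**Figure D3:**
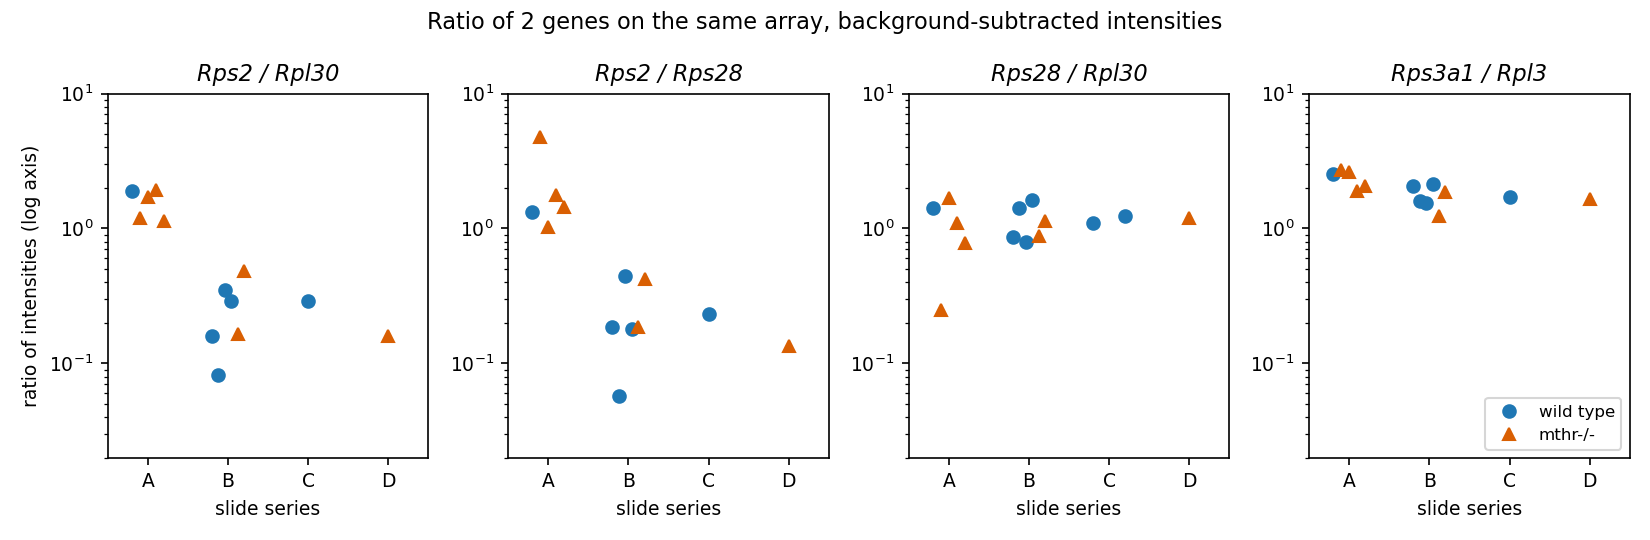
Ratio of background-subtracted intensities of 2 genes on the same array (log axis) by slide series, for 4 of the 10 pairs, with circles for wild type and triangles for mthr-/-, leaving out wild type 6 where a gene was below background. Rps2 over Rpl30 lies between 1.13 and 1.93 in series A and between 0.0826 and 0.481 elsewhere, whereas Rps28 over Rpl30 overlaps between the series.

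The within-array log2 difference of quantile-normalized values was tested for every pair of tested genes with limma. Unlike the ratios above, these differences depend on the scaling, since quantile normalization does not cancel within a pair. Between the genotypes, 0 of 8911 pairs passed at an adjusted p below 0.05 (0%), and 7.93% had an unadjusted p below 0.05. Rps2 minus Rps28 was -0.93 in wild type and -0.18 in mthr-/-, a difference of 0.75 (SE 0.35). Rps3a1 minus Rps28 was -0.83 and -0.13, a difference of 0.70 (SE 0.28), and Rps3a1 minus Rpl30 was -0.71 and -0.16, a difference of 0.55 (SE 0.24). Each of these gaps was narrower in mthr-/-, with a limma adjusted p of 0.605 for each. With slide series as a block the differences became 0.21 (SE 0.24), 0.30 (SE 0.25) and 0.11 (SE 0.17). Without the block, each of these pairs had an unadjusted limma p below 0.05, as did Rps28 minus Rpl3 and Rpl3 minus Rpl30. Among pairs of the 5 genes, the gap was wider in mthr-/- only for Rps2 minus Rpl3 and Rps3a1 minus Rpl3. They stood at 0.14 and 0.24 in wild type and at 0.31 and 0.365 in mthr-/-.

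For series A minus B, 316 of the 8911 pairs passed (3.55%), and 4 of the 10 pairs of ribosomal protein genes did. The difference was 1.14 (SE 0.20, limma adjusted p = 0.0315) for Rps2 minus Rpl30 and 1.15 (SE 0.24, limma adjusted p = 0.035) for Rps2 minus Rps28. It was 0.81 (SE 0.17, limma adjusted p = 0.0357) for Rps3a1 minus Rpl30 and 0.56 (SE 0.12, limma adjusted p = 0.0376) for Rps2 minus Rpl3. The same difference was -0.0063 (SE 0.20, limma adjusted p = 0.986) for Rps28 minus Rpl30 and 0.22 (SE 0.09, limma adjusted p = 0.169) for Rps3a1 minus Rpl3. Rps2 minus Rpl30, Rps3a1 minus Rpl30 and Rps2 minus Rpl3 each set a small subunit gene against a large subunit gene. Only Rps2 minus Rps28 is a pair within the small subunit, so the pairs that passed did not all follow the subunits. All 4 calls were lost without any 1 of wild type 1, 2, 3, 4 or 5 or mthr-/- 5. The number of pairs was then 0. Rps2 minus Rpl3 also missed the threshold without mthr-/- 2 (limma adjusted p = 0.0519) or mthr-/- 3 (limma adjusted p = 0.0533). Rps3a1 minus Rpl30 missed it without mthr-/- 3 (limma adjusted p = 0.0522) or mthr-/- 4 (limma adjusted p = 0.051). The number of pairs was 817 without mthr-/- 1. It was 0 also with arrays centred on their median, a scaling that cancels within a pair, and 77 with cyclic loess. With median centring, Rps2 minus Rpl30 was 0.89 and Rps2 minus Rps28 0.90, each with a limma adjusted p of 0.261. Rps3a1 minus Rpl30 was then 0.60 (limma adjusted p = 0.264) and Rps2 minus Rpl3 0.48 (limma adjusted p = 0.297).

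Across animals, the correlation of 2 genes was taken over all 14 arrays only for Rps3a1 with Rpl3. For each of the other 3 genes, the arrays of series A had no overlap with the rest, though for Rps28 they all but touched. Rps3a1 and Rpl3 rose and fell together, with Pearson r = 0.82 (permutation p = 0.00073, adjusted p = 0.0327 over all 8911 pairs) and Spearman rho = 0.71 (permutation p = 0.0059, adjusted p = 0.0974). Of the 8911 pairs 4.19% passed on Pearson's r, and the median r was -0.01, with the 5th and 95th percentiles at -0.65 and 0.69. Without mthr-/- 1 and wild type 6, the arrays farthest from the median of Rps3a1, r was 0.64 over 12 arrays, after taking out genotype means it was 0.77 and after taking out series means 0.88. Within series B it was 0.67 (n = 6, exact permutation p = 0.139), and series A with 5 arrays was too small for a value of its own. Leaving out wild type 6 gave 0.77 (permutation p = 0.00155, adjusted p = 0.0685) and cyclic loess scaling 0.71 (permutation p = 0.0122, adjusted p = 0.148). The call was also lost without wild type 1 (permutation test, adjusted p = 0.0511), mthr-/- 3 (adjusted p = 0.0505) or mthr-/- 4 (adjusted p = 0.0622). It thus rests on the scaling and on single arrays, while the sign does not.

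For the other 9 pairs the correlation was taken over the 9 arrays outside series A, where none of the 8911 pairs passed after adjustment (0%) and 14.4% had an unadjusted p below 0.05. Rps2 and Rps28 had r = -0.81 (n = 9, exact permutation p = 0.00311, adjusted p = 0.209) and rho = -0.85 (exact permutation p = 0.00607, adjusted p = 0.416), the strongest of the 9. In series B alone their r was -0.85 (n = 6, exact permutation p = 0.0222), and without wild type 6 and wild type 3 it was -0.52 over 7 arrays. After taking out series means, over all 14 arrays, it was -0.37. The sign turned with the scaling, to 0.41 with arrays centred on their median and 0.59 without normalization, a scaling under which 7744 of the 8911 pairs passed over all 14 arrays.

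Rps2 with Rps3a1 had r = 0.67 (n = 9, exact permutation p = 0.0486, adjusted p = 0.345) and with Rpl3 r = 0.74 (n = 9, exact permutation p = 0.0495, adjusted p = 0.346). Without wild type 6 and wild type 3 these were 0.38 and 0.37. Rps2 with Rpl30 had r = -0.68 (n = 9, exact permutation p = 0.0539), which became 0.12 without the same arrays. Rps28 with Rpl30 had r = 0.64 (n = 9, exact permutation p = 0.058) and 0.39 without wild type 6 and wild type 4. After taking out series means, over all 14 arrays, Rps2 had r = 0.36 with Rps3a1, 0.36 with Rpl3 and -0.23 with Rpl30. Rps28 with Rpl30 then had 0.18. The other 4 pairs, Rps3a1 with Rps28 and with Rpl30 and Rpl3 with Rps28 and with Rpl30, had r between -0.39 and -0.20, and each turned positive, 0.11 to 0.60, without the 2 farthest arrays. Wild type 6, the array with the fewest oligonucleotides above background, was 1 of the 2 farthest arrays in all 9 pairs.

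**Figure D4:**
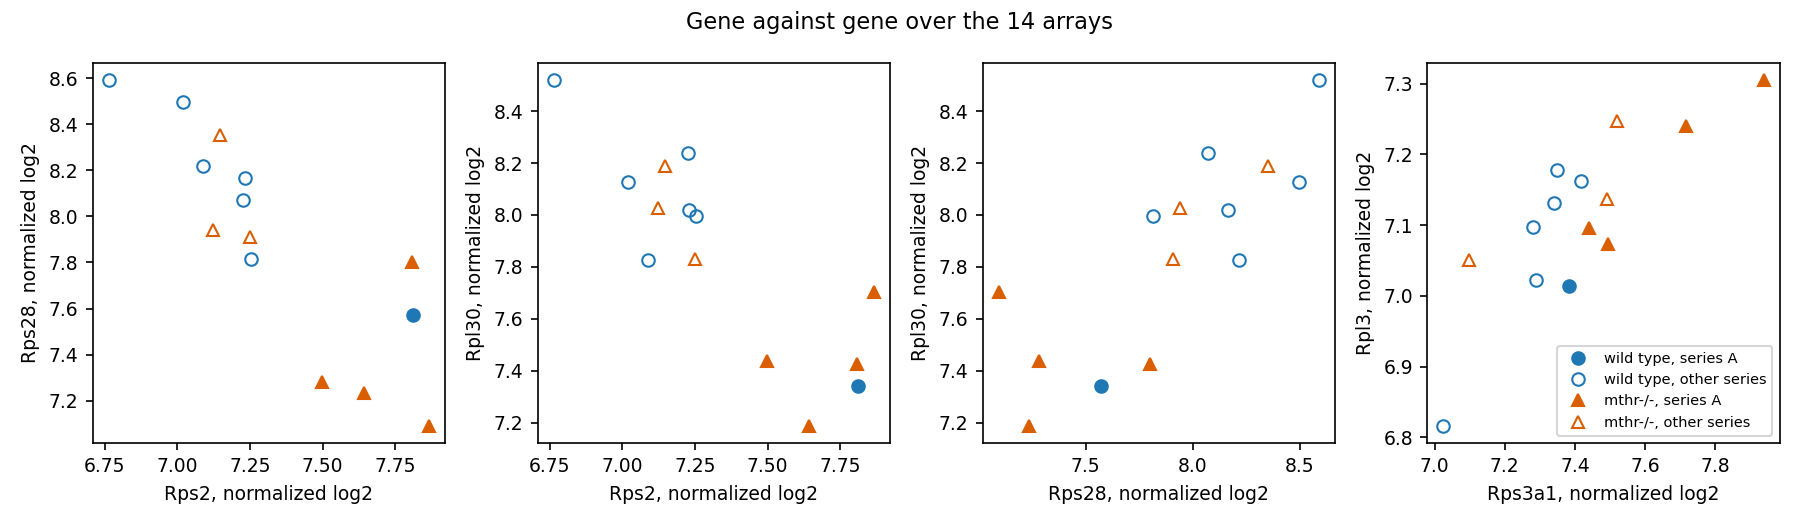
Normalized log2 intensity of 1 gene against another over the 14 arrays, with filled symbols for series A, open symbols for the other series, circles for wild type and triangles for mthr-/-. In the 3 panels with Rps2, Rps28 or Rpl30 the filled symbols do not overlap the open ones on either axis. In the panel of Rps3a1 and Rpl3 (r = 0.82) they overlap on both.

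By sex, with genotype in the model, 0 of 134 genes passed and 0 of the 5 (0%), and 3 genes (2.24%) had an unadjusted p below 0.05. Rpl3 was 1 of those 3, higher in females by 0.14 (SE 0.05, limma adjusted p = 0.9996, unadjusted p = 0.0276). Rps3a1 was higher in females by 0.19 (SE 0.10), Rpl30 by 0.17 (SE 0.20) and Rps28 by 0.014 (SE 0.23), and Rps2 lower, at -0.085 (SE 0.18). For the genotype by sex term 0 of 134 genes passed (0%), 2 (1.49%) had an unadjusted p below 0.05, and none of the 5 was among them.

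The array holds 3 further genes of cytosolic ribosomal proteins, Rpl13, Rpl23 and Rps27, beside 3 genes of mitochondrial ribosomal proteins and Eif5, a translation initiation factor. All but Mrpl43, which was above background on 6 arrays, were tested, and 0 of these 6 passed for the genotype or the slide series. Rps27, a small subunit protein gene, differed between series A and B by -0.47 (SE 0.18, limma adjusted p = 0.144) and ran from 7.28 to 7.99 in series A and from 7.61 to 8.55 outside it. Rpl13 differed by -0.31 (SE 0.23), Rpl23 by -0.11 (SE 0.20), Eif5 by -0.20 (SE 0.11), Mrpl52 by -0.10 (SE 0.10) and Mrpl27 by 0.08 (SE 0.05). The median series difference of the 6 was -0.15, that of the 5 ribosomal protein genes 0.015 and that of all tested genes -0.03. For the genotype 1 of the 6, Rpl23, had a higher mean in mthr-/-, by 0.017 (SE 0.16).

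The genes whose pattern over the 14 arrays was most like each of the 5 are given as a description. For Rps2, Rps28 and Rpl30 series A had no overlap with the rest, so r over all 14 arrays includes that separation. Nearest to Rps2 were Ahcy, which splits S-adenosylhomocysteine, with r = 0.93, and the lysosomal proteases Ctsb (0.85) and Ctsh (0.85). Over the 9 arrays outside series A these were 0.85, 0.52 and 0.44. Nearest to Rps3a1 were Cdo1, a cysteine dioxygenase (0.88), the chaperone Hsp90aa1 (0.73) and the sulfhydryl oxidase Gfer (0.70), and outside series A they stood at 0.72, 0.67 and 0.33. Hsp90aa1 and Gfer were dim, with median intensities of 10.25 and 9.88. Nearest to Rpl3 were Gfer (0.75), albumin, Alb (0.70), and Mst1, a growth factor made by liver (0.69), and outside series A they stood at 0.62, 0.82 and 0.70.

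Among the genes nearest to Rps28 were the nuclear poly(A)-binding protein Pabpn1 (0.76) and the collagen Col3a1 (0.75), with median intensities of only 6 and 6.25. Nearest to Rpl30 were Csad, which makes hypotaurine (0.89), the glutamine synthetase Glul (0.88) and Ndufs3, a subunit of respiratory complex I (0.87). Outside series A, r was 0.52 for Pabpn1 and 0.83 for Col3a1, and 0.83 for Csad, 0.47 for Glul and 0.66 for Ndufs3.

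Each gene was read from 4 spots, and their agreement set how well a single array measured it. Of 280 spots of the 5 genes, 6 were blanked by the authors, 5 repeat another block of mthr-/- 1, and 269 were kept. The median SD between spots was 0.10 for Rps2, 0.12 for Rps3a1, 0.20 for Rps28, 0.09 for Rpl3 and 0.14 for Rpl30 on the normalized log2 scale, against 0.07 over all tested genes. Rps28 was the least even: its spots read 235, 393, 123 and 49 above background on wild type 6, 205, 145, 519 and 498 on wild type 3, and 145, 197, 44 and 50 on mthr-/- 4. On mthr-/- 1 the spot of block 1 read 320 and was blanked, and the 2 spots kept read 64 and 24, so the lowest Rps28 value of all arrays rests on 2 spots. From blocks 1 and 2 alone the series difference of Rps28 was -0.52 (SE 0.24), and from blocks 3 and 4 alone -0.73 (SE 0.24).

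**Figure D5:**
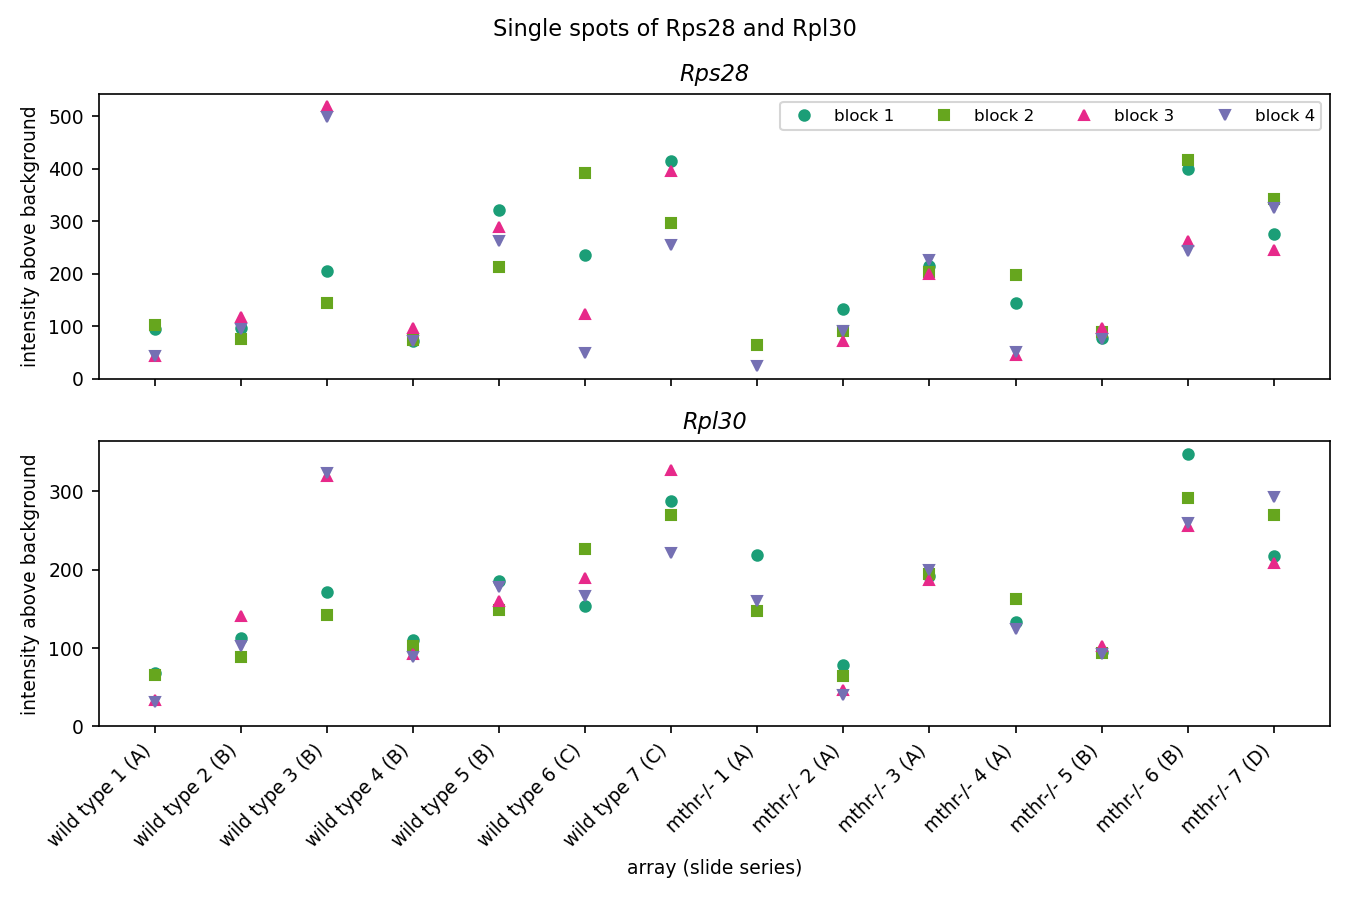
Intensity above local background of each kept spot of Rps28 and Rpl30 (vertical axis, linear from 0) on the 14 arrays, with symbols for the 4 blocks. The Rps28 spots of wild type 6 run from 49 to 393, and those of wild type 3 split into 145 and 205 against 498 and 519.

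Ribosomal protein genes have many processed copies, and the oligonucleotides cannot be checked against them without their sequences. The RefSeq annotation of GRCm38.p6 lists 12 pseudogenes named after Rps2, 10 after Rpl30, 2 after Rpl3, 2 after Rps3a1 (Rps3a2 and Rps3a3) and 0 after Rps28. Copies annotated under other names were not counted. A signal of any of the 5 genes may therefore include near-identical transcripts, and which of the 5 values hold such signal was not tested.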

How the data were processed

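RNA from 14 livers was measured on single-colour arrays of spotted oligonucleotides. The deposited array files give, per the file headers, the intensity of 4 spots and of their local background for each oligonucleotide on a linear scale, and the authors blanked some spots. Scanner and image software: not given in the sources used here. A deposited value table holds the authors' scaled intensity, and the authors' deposited table of medians gives log10 of the mthr-/- over the wild type median, per the file headers.

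Background was corrected with normexp (offset 50, which draws differences of dim genes towards 0) in limma 3.58.1 under R 4.3.3. Arrays were quantile normalized, blanked, control and repeated spots were left out, and spots were averaged on the log2 scale. On mthr-/- 1 block 3 repeats block 2 and was counted once. An oligonucleotide was tested when its intensity exceeded the mean plus 2 SD of 16 plant control spots on at least 7 of the 14 arrays, and a gene was read from its brightest oligonucleotide. This left 139 of 284 oligonucleotides and 134 of 271 genes. Names came from RefSeq by accession for 191 oligonucleotides, by symbol for 38, by synonym for 26 and by a spelt-out name for 4, and the remaining 25 kept their deposited name. No gene coordinates from an array build were used. Precision is limited by the number of arrays, with a median SE of 0.10 for a genotype difference.

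Genotype, slide series (genotype in the model), sex (genotype in the model), genotype by sex, and the within-array difference of all 8911 gene pairs were fitted by lmFit and eBayes of limma (two-sided tests), with Benjamini-Hochberg adjustment over all genes or pairs and a threshold of 0.05. Correlations used a two-sided permutation test (NumPy 2.4.6) with 100000 resamples over 14 arrays, and every ordering, which is exact, over 9 or 6 arrays. Where a gene's series A arrays did not overlap the others, the 9 arrays outside series A replaced all 14. The nearest genes, however, were chosen by r over all 14 arrays for each member. The genotype fit and the permutation p over 6 arrays were tested on simulated data, and the other steps were not. The genes named are the 5 members, the 3 tested genes nearest to each by Pearson's r, and every tested gene of a translation list; 1 of the nearest genes is not reported here. Members and lists were chosen with earlier results of these data known, and the pair test by slide series, the ratios and the 9-array correlations were added after the data were seen. The alternatives were other scalings, offset, filters, spot summaries, the value table as log2(value + 10), slide series or animal number as a block, and leaving out each array.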

Additional observations from a re-analysis of the deposited data

Results flagged for a closer look

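Rps3a1 on wild type 6 stood far from the rest of its group, at 7.03 against 7.28 to 7.42 on the other 6 wild type arrays. The gap took up 0.652 of the group's range. Its intensity there was 9.25, under the background limit of 9.81 of that array. Mrpl27, a mitochondrial ribosomal protein gene, read 6.99 on mthr-/- 1 against 6.76 to 6.85 on the other 6 mthr-/- arrays, a gap of 0.582 of the range. It was above the background limit on 9 of the 14 arrays. On mthr-/- 4 its intensity was 1 against a limit of 4.63, and on mthr-/- 5 it was 0.65 against 1.36. The 2 flagged groups were among 22 groups of 7 arrays examined, over 11 genes, and chance alone gives about 1 such flag in 20 groups.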

How the results depend on the processing

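Series A minus B kept its sign for Rps2, Rpl30, Rps28 and Rps3a1 in all 29 alternatives each. Rps2 missed the threshold in 8 of them and Rpl30 in 18, and Rps28 passed in 1. The number of genes past the threshold by series, 7, was 0 with arrays centred on their median or not normalized, 1 with cyclic loess or scaling to reference genes, 1 to 13 leaving out 1 array, and 16 without wild type 6, mthr-/- 1 and mthr-/- 6. The number of gene pairs by series was 0 with median centring or no normalization, 77 with cyclic loess, and 0 to 817 leaving out 1 array. The series difference of Rpl3 turned to -0.014 without those 3 arrays and to -0.036 from blocks 3 and 4 alone. Leaving out 1 array, it ran from -0.032 to 0.086, and that of Rps28 minus Rpl30 ran from -0.092 to 0.11. The genotype count stayed at 0 except for 1 gene without normalization, where the median of all genes shifted by 0.81 and Rps28 read 0.17 and Rpl30 0.27, both below that median. With slide series as a block the genotype difference of Rps2 was -0.016, that of Rps2 minus Rps3a1 -0.091 and that of Rps2 minus Rpl3 -0.065. Leaving out 1 array, Rps2 minus Rps3a1 ran from -0.015 to 0.14. Counts for sex, genotype by sex and genotype pairs were 0 in every alternative. The sex difference of Rps28 was -0.055 with cyclic loess, -0.013 with reference genes, -0.0076 with an offset of 0, -0.075 in the value table, -0.13 with slide series as a block and -0.10 to 0.12 leaving out 1 array. With reference genes it was -0.021 for Rps3a1 and -0.088 for Rpl3, and with median centring 0.055 for Rps2. The cause was not tested for any of these.

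The number of correlated pairs, 373, was 3199 with median centring, 69 with cyclic loess, 7744 without normalization and 96 to 475 leaving out 1 array. With median centring r was 0.41 for Rps2 with Rps28, 0.43 for Rps2 with Rpl30, 0.69 and 0.64 for Rps3a1 with Rps28 and Rpl30, and 0.66 and 0.63 for Rpl3 with Rps28 and Rpl30. Without normalization these were 0.59, 0.60, 0.74, 0.73, 0.67 and 0.67. With cyclic loess r was -0.28 for Rps2 with Rpl3, 0.034 for Rps3a1 with Rpl30, 0.13 for Rpl3 with Rps28 and 0.10 for Rpl3 with Rpl30. With series means taken out Rps3a1 with Rpl30 had 0.19 and Rpl3 with Rpl30 0.089, and in series B Rps3a1 with Rps28 had 0.11, Rpl3 with Rps28 0.29 and Rpl3 with Rpl30 0.60. Leaving out 1 array, r ran from -0.42 to 0.31 for Rps3a1 with Rps28, -0.55 to 0.19 for Rps3a1 with Rpl30, -0.48 to 0.47 for Rpl3 with Rps28 and -0.57 to 0.68 for Rpl3 with Rpl30, each turning positive without wild type 6.

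The animal numbers do not pair the arrays: deviations of same-numbered animals correlated from -0.23 to 0.35, 4 of 7 over 0.1, and 0 wild type arrays matched their own number best. With that replicate block 0 genes and 0 pairs passed, and Rps28 stood at -0.47 with a limma adjusted p of 0.476. On wild type 6, 3 of the 5 genes were under the background limit.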
